A study of Mus musculus with 10 samples.

Results

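The genes described here encode the respiratory chain and the ATP synthase, the membrane complexes through which mitochondria make most of the ATP of a resting cell. They were chosen by name from a table of normalized counts, as the rows whose symbol begins with Nduf, Sdh, Uqcr, Cox4 to Cox8, Atp5 or mt-, together with Cyc1 and Cycs. Of 48825 genes listed, 135 carried such a name, and 111 of these reached 10 normalized counts in at least 2 of the 10 libraries, the filter that left 15716 genes for testing. Just inside that filter was Cox6a2, at 12 in Control 3, 6 and 10 in CSF1Ri 1 and 6, 1 in CD40 1 and 0 elsewhere, and just outside was Cox4i2, at 9 in Control 2, 9 in CSF1Ri 1, 18 in CD40 1 and 0 elsewhere. The 111 members comprise 94 genes of the nuclear genome and 17 of the mitochondrial genome.

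Complexes I to IV pass electrons from NADH and succinate to oxygen and pump protons, and the ATP synthase, also called complex V, uses the proton gradient. All complexes except complex II are assembled from subunits of both genomes. The small circular mitochondrial genome encodes some of the subunits of complexes I, III, IV and V, along with the ribosomal and transfer RNAs that translate it. The nucleus encodes every other subunit, core subunits of complex I and the catalytic head of complex V among them. Both strands of the mitochondrial genome are transcribed by a dedicated polymerase as long precursors that are cut into single RNAs, so the mitochondrial and nuclear transcripts of 1 complex are made by separate machineries. Activated T cells raise both glycolysis and respiration, and long-lived T cells rely largely on respiration.

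The RNA came from melanomas of mice with alleles that include BrafCA and Tyr::CreER, in which tamoxifen-inducible Cre in melanocytes switches on oncogenic Braf; all groups carry the same alleles. Control mice had normal chow and PBS as the vehicle (3 libraries, Control 1 to 3). The CSF1Ri group ate chow with 600 mg/kg of PLX6134, an inhibitor of the macrophage receptor CSF1R (2 libraries, CSF1Ri 1, whose title has no number, and CSF1Ri 6). The CD40 group received the agonistic CD40 antibody FGK4.5 at 10 mg/kg every 3 days (3 libraries, CD40 1 to 3), and the CSF1Ri+CD40 group received both agents (2 libraries, numbers 1 and 3). Treatment began 30 days after tumor induction, below 100 mm3, and lasted 30 days or until 2 cm3. Ages are not given beyond that mice were age-matched. Each library pooled at least 3 tumors.

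The genotype field reads wild type beside these alleles. Titles name T cells, the tissue field names tumor-associated macrophages, and no step that selects T cells is given in the protocols. The 8 T cell markers summed to between 88275 and 151027 normalized counts per library and the 8 macrophage markers to between 501 and 2580. Markers of other cell types also had counts, with sums below that of the T cell markers in every library. Red cells (5 markers, 13 to 15906) and mast cells (6, 531 to 18054) reached the highest sums. The others were fibroblasts (6, 34 to 4858), B cells (5, 4397 to 7000), keratinocytes (7, 259 to 1878), melanocytes (7, 275 to 1177), muscle (6, 143 to 759) and brown fat (3, 0 to 530). Normalized totals ran from 11538244 to 14024851, and the spacing of the values put the counted reads between 10.3 M and 15.0 M in the 8 libraries where it could be read. Y-linked transcripts were present in Control 1, CD40 2 and CD40 3 (4 genes summed, 1569 to 3072) and at 0 or 1 elsewhere. CD40 2 and CD40 3 also stood farthest from their group, with limma quality weights of 0.589 and 0.388 against 0.769 or more in the others. In bulk libraries fewer cells of a type and less RNA per cell cannot be told apart.

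Which mitochondrial messages the table could report came first. The mitochondrial genome encodes 13 proteins, and 7 of the 13 passed the filter: mt-Nd1, mt-Nd2, mt-Nd4, mt-Nd5 and mt-Nd6 of complex I, mt-Cytb of complex III and mt-Co1 of complex IV. The other 6, mt-Nd3, mt-Nd4l, mt-Co2, mt-Co3, mt-Atp6 and mt-Atp8, stood between 0 and 5 in every library. No mitochondrial subunit of the ATP synthase was therefore measured. Values of 0 to 5 for mt-Co2 and mt-Co3 stood beside 27037 to 78598 for mt-Co1, the catalytic subunit of the same enzyme.

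A block of chromosome 1 (GRCm38, GENCODE vM21) holds annotated copies of mitochondrial genes, and these copies were aligned with the genes without gaps. The copies Gm10222, Gm28437, Gm10925 and Gm28661 had 0 mismatches to mt-Nd4l, mt-Co3, mt-Atp6 and mt-Co2 over 294, 783, 678 and 681 bases. Each of those copies was listed at 20 or less in every library, like the gene it copies. Gm28438, the copy of mt-Nd3, was the exception. It had 1 mismatch over 345 bases, T3C, with positions counted from 1 at the first base of mt-Nd3. The first 60 bases of both are shown because this pair is the only one in which the copy carried counts, with the differing base in capitals (mt-Nd3, plus strand of the mitochondrial chromosome, positions 9459 to 9518; Gm28438, minus strand of chromosome 1, positions 24613060 to 24613119, both GRCm38).
mt-Nd3: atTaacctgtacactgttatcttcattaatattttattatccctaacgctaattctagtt
Gm28438: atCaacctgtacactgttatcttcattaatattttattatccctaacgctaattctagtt

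Gm28438 stood at 2046, 3931 and 4649 in Control 1, 2 and 3, at 3154 and 3222 in CSF1Ri 1 and 6, at 3443, 2756 and 1827 in CD40 1, 2 and 3, and at 2100 and 3720 in CSF1Ri+CD40 1 and 3. The row of mt-Nd3 itself stood between 0 and 4 in the same libraries. The groups overlapped for Gm28438, and it held 10.8 to 18.6 normalized counts for every 1000 of the 7 mitochondrial mRNAs. Whether its reads come from the mitochondrial message or from chromosome 1 was not tested, since the table holds no reads.

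Sharing of each mitochondrial gene was taken as the percentage of its 75-base windows that occur in another annotated transcript. A window stands for 1 read of a pair, so a pair can be placed where 1 of its windows cannot. Copies outside annotated transcripts were not searched, so a share of 0 does not show that every read has 1 place. The share was 97.8% for mt-Nd3, 98.7% for mt-Nd4l, 99.5% for mt-Co2 and mt-Atp6 and 99.9% for mt-Co3, the 5 genes near 0 that have a copy. Among those that passed, mt-Nd4 shared 61.5% of its windows, mt-Co1 39.8%, mt-Nd2 5.71% and mt-Nd5 1.66%, and mt-Nd1, mt-Cytb and mt-Nd6 shared 0. mt-Atp8 was at 0 in all 10 libraries with 0% of its windows shared. It overlaps mt-Atp6 by 43 bases, and the stretch of chromosome 1 between the copies Gm10925 and Gm28661 holds no gene model used here, so its case was not resolved. How the counting treated reads with several matches is not given in the sources used here.

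**Figure D1:**
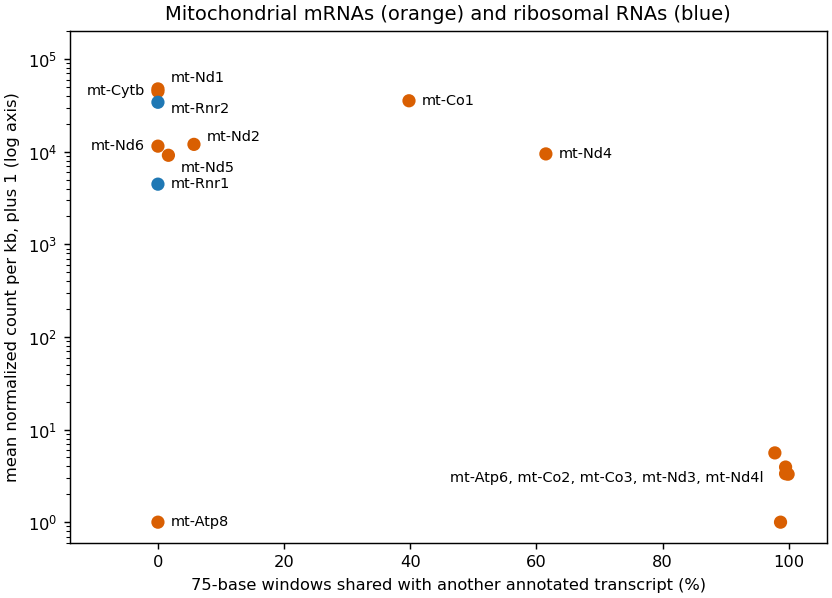
Each point is a mitochondrial mRNA (orange) or ribosomal RNA (blue), with the percentage of its 75-base windows shared with another annotated transcript on the x axis and its mean normalized count per kb over 10 libraries, plus 1, on a log y axis. The 5 mRNAs above 97% lie below 10, mt-Co1 and mt-Nd4 lie at 35510 and 9472, and mt-Atp8 is at 0 without any shared window.

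On the mitochondrial chromosome (GRCm38) mt-Nd1 spans 2751 to 3707, mt-Nd2 3914 to 4951, mt-Co1 5328 to 6872, mt-Nd4 10167 to 11544, mt-Nd5 11742 to 13565 and mt-Cytb 14145 to 15288 on the plus strand. mt-Nd6 spans 13552 to 14070 on the minus strand and overlaps mt-Nd5 by 14 bases. Per kb of exon and averaged over the 10 libraries, mt-Nd1 had the highest level at 47700, followed by mt-Cytb at 44840 and mt-Co1 at 35510. mt-Nd2 at 12010, mt-Nd6 at 11490, mt-Nd4 at 9472 and mt-Nd5 at 9156 formed a lower tier. The values of mt-Co1 and mt-Nd4 count all of their length, including the shared windows. Leaving the shared windows out of the length would raise both, so this order and the lower tier hold only for whole length. mt-Nd6 is the only one of the 7 on the opposite strand, and because the libraries carry no strand information its count can include antisense RNA of the long precursor. The highest nuclear member on this measure was Cox4i1 at 8912, below every one of the 7. The median of the nuclear members with a gene model was 1566. Exon length here joins the exons of all annotated transcripts of a gene, 1550 bases for Cox4i1. It can exceed the length of any single message, which lowers the value per kb. The order between nuclear and mitochondrial members therefore holds only for that length.

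Summed over the 7, mitochondrial mRNA amounted to 188646, 290858 and 289406 normalized counts in Control 1, 2 and 3. It was 184968 and 203524 in CSF1Ri 1 and 6, 197016, 180485 and 98253 in CD40 1, 2 and 3, and 151617 and 215116 in CSF1Ri+CD40 1 and 3. Control 2 and Control 3 were above every treated library, whereas Control 1 lay inside the treated range, and CD40 3 was lowest in all 7 genes. The group means were 256303 ± 58598 (SD, n = 3) for control, 194246 ± 13121 (n = 2) for CSF1Ri, 158585 ± 52899 (n = 3) for CD40 and 183366 ± 44901 (n = 2) for CSF1Ri+CD40. Red cell markers differed in the same direction: the 5 of 5 tested, hemoglobin genes and Alas2, summed to 13071, 15906 and 2940 in the controls, 1318 and 2729 in CSF1Ri, 876, 1195 and 942 in CD40 and 13 and 501 in CSF1Ri+CD40, with Hbb-bs, Hbb-bt and Alas2 at 0 in CSF1Ri+CD40 1. Control 3 had the fewest red cell markers of the controls and nearly the same mitochondrial sum as Control 2. T cell markers, all 8 of 8 higher in each treated group (median log2 fold changes of 0.38, 0.30 and 0.34 under CSF1Ri, CD40 and both, 0 past the adjusted threshold), summed to 88275, 112299 and 99622 in the controls and to between 93175 and 151027 in the treated libraries. Mast cell markers, 6 of 6 higher under CD40 and under both (medians 2.85 and 2.48, 0 past the adjusted threshold) and 4 of 6 under CSF1Ri (0.50), summed to 615, 531 and 1725 in the controls, 1853 and 720 in CSF1Ri, 18054, 2428 and 3569 in CD40 and 9825 and 1801 in CSF1Ri+CD40. Marker medians were also below 0 under CSF1Ri, CD40 and both for keratinocytes (-1.87, -1.06, -0.83), fibroblasts (-2.21, -2.15, -0.55) and macrophages (-0.88, -0.63, -1.43). The same held for B cells (-0.26, -0.58, -0.82) and brown fat (-1.63, -0.28, -2.40), though several of these lists held markers that were higher. Melanocyte medians were above 0 (0.45, 0.81, 0.85), and those of muscle were mixed (0.37, -0.42, -1.19). The part of these cell types in the group difference was not tested.

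The 94 nuclear members did not share this order. Their sum was 242294, 305554 and 230374 in Control 1, 2 and 3, 261428 and 276676 in CSF1Ri 1 and 6, 300720, 367145 and 218176 in CD40 1, 2 and 3, and 264890 and 260624 in CSF1Ri+CD40 1 and 3. The groups overlapped, and the highest and the lowest library were both in the CD40 group.

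The ratio of the sums compares the 2 genomes within a library and does not depend on how that library was scaled. On the log2 scale it was -0.36, -0.07 and 0.33 in Control 1, 2 and 3, -0.50 and -0.44 in CSF1Ri 1 and 6, -0.61, -1.02 and -1.15 in CD40 1, 2 and 3, and -0.80 and -0.28 in CSF1Ri+CD40 1 and 3. All 3 CD40 and both CSF1Ri libraries were below all 3 controls, and CSF1Ri+CD40 3 lay between Control 1 and Control 2. In CD40 2 the nuclear sum, 367145, was the highest of all libraries, while its mitochondrial sum, 180485, was close to 188646 in Control 1. The nuclear shift of CD40 2 was related to exon length, as described below, and its part in the ratio was not tested. As plain ratios, control averaged 0.996 ± 0.242 (SD, n = 3), CSF1Ri 0.722 ± 0.0199 (n = 2), CD40 0.532 ± 0.108 (n = 3) and CSF1Ri+CD40 0.699 ± 0.179 (n = 2). Relative to control the log2 ratio differed by -0.89 under CD40, -0.44 under CSF1Ri and -0.51 under both, where the spread between replicates was 0.300. These are sums over chosen genes, so no p is given for them. Without CD40 2 and CD40 3, which leaves 1 CD40 library, the CD40 difference was -0.58, and without Control 3 the CSF1Ri difference was -0.26. The difference under both agents was -0.24 without CSF1Ri+CD40 1, -0.77 without CSF1Ri+CD40 3 and -0.32 without Control 3.

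**Figure D2:**
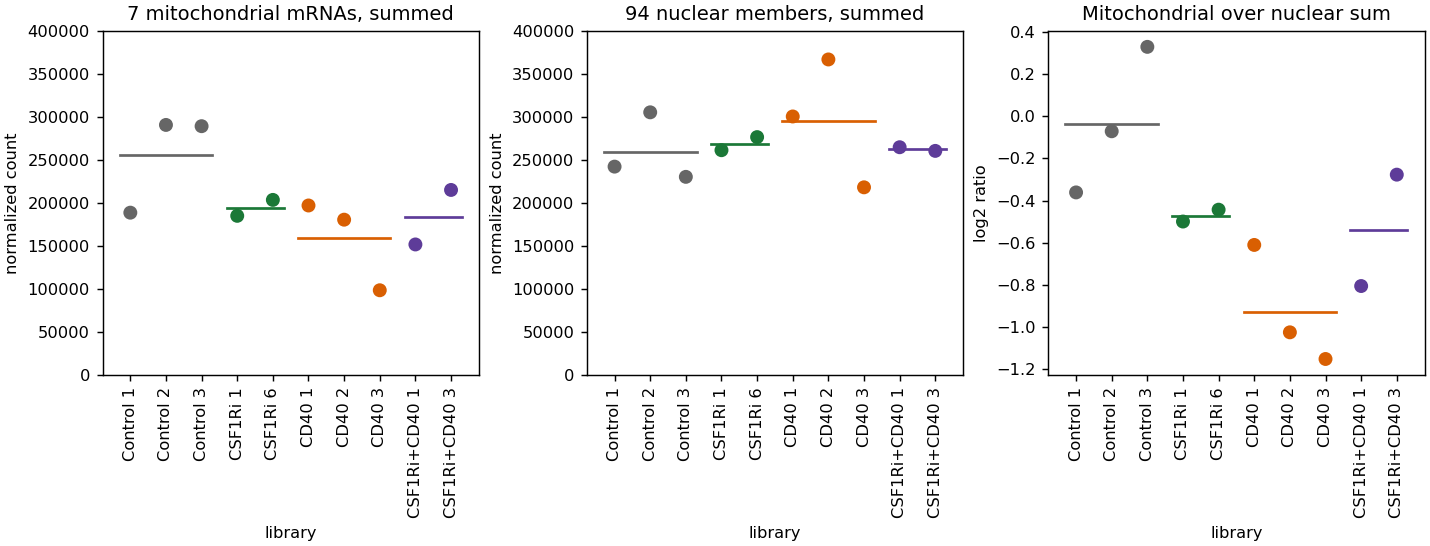
Points are libraries and lines are group means for the summed normalized counts of the 7 mitochondrial mRNAs, of the 94 nuclear members, and the log2 ratio of both sums. The ratio is below the lowest control, -0.36, in every library of CSF1Ri and CD40 and in CSF1Ri+CD40 1, and above it in CSF1Ri+CD40 3 at -0.28.

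Single genes were tested with limma on log2(value + 1), and p-values were adjusted by Benjamini and Hochberg over the 15716 genes. On this scale the change of low genes is understated. No member passed an adjusted p of 0.05 in any of 6 comparisons. For CSF1Ri over control and for CD40 over control 1 gene of 15716 passed (0.00636% in each). For CSF1Ri+CD40 over control, over CSF1Ri and over CD40, and for the interaction, which asks whether the effect of the antibody differs with the inhibitor, it was 0 genes (0% in each). Counts at an unadjusted p under 0.05 are therefore given as descriptions, each beside the same share over all genes. Replicates are pools of tumors, so the p-values measure the spread between pools.

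Under CD40, 6 of the 7 mitochondrial mRNAs were lower than in control at an unadjusted p under 0.05, where 3.76% of all genes tested were. mt-Nd4, a proton-pumping subunit of complex I, stood at 13337, 21713 and 21596 in Control 1, 2 and 3, at 10721 and 12011 in CSF1Ri 1 and 6, at 11278, 11105 and 7217 in CD40 1, 2 and 3, and at 9168 and 12385 in CSF1Ri+CD40 1 and 3. Every treated library was below every control library. Its log2 fold change was -0.93 (SE 0.246) under CD40, with a limma adjusted p of 0.666, the smallest among the members in that comparison.

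mt-Nd5, another proton-pumping subunit, stood at 16030, 22165 and 25940 in the controls, 16274 and 19115 in CSF1Ri, 16198, 9769 and 8259 in CD40 and 13126 and 20136 in CSF1Ri+CD40. CD40 1 lay just above Control 1, so these groups touched. The log2 fold change under CD40 was -0.94 (SE 0.277, limma adjusted p = 0.691). CD40 2 was low in mt-Nd5 relative to mt-Co1: the ratio of their values was 0.171 there and between 0.282 and 0.361 in the other 9 libraries.

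mt-Nd6 stood at 6525, 8862 and 8450 in the controls, 5576 and 5908 in CSF1Ri, 5879, 3974 and 3181 in CD40 and 4249 and 7030 in CSF1Ri+CD40. Both single treatments were wholly below control. Under CD40 the log2 fold change was -0.91 (SE 0.259, limma adjusted p = 0.691).

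mt-Cytb, the cytochrome b of complex III, stood at 46461, 73911 and 78968 in the controls, 48670 and 51875 in CSF1Ri, 49539, 42408 and 24662 in CD40 and 39162 and 57328 in CSF1Ri+CD40. Control 1 was below both CSF1Ri libraries and CD40 1, so the groups overlapped. The log2 fold change under CD40 was -0.80 (SE 0.287, limma adjusted p = 0.722).

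mt-Co1 had the smallest difference under CD40, -0.60 on the log2 scale (SE 0.286, limma adjusted p = 0.773). It stood at 51967, 78598 and 71875 in the controls, 51270 and 54851 in CSF1Ri, 55042, 57107 and 27037 in CD40 and 42316 and 58520 in CSF1Ri+CD40. Here 2 of 3 CD40 libraries were above Control 1. mt-Nd1 and mt-Nd2, the remaining complex I messages, had log2 fold changes of -0.68 and -0.71 under CD40, and in both genes CD40 1 and CD40 2 lay above Control 1.

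Over the 7 genes the median log2 fold change was -0.80 under CD40, -0.37 under CSF1Ri and -0.50 under both, while over all genes tested it was -0.01, 0.02 and -0.00. All 7 were lower in each of these comparisons, but the 7 come from shared precursors and the comparisons share their controls. In CSF1Ri over control 1 of 7, mt-Nd4, was lower at an unadjusted p under 0.05 (2.09% of all genes), and in CSF1Ri+CD40 over control again mt-Nd4 (3.07%). None of the 7 was higher at that level, where 1.99%, 2.63% and 2.34% of all genes were in CSF1Ri, CD40 and CSF1Ri+CD40 over control. mt-Nd4 and mt-Nd6 were without overlap below control in CSF1Ri (10.3% of all genes) and in CD40 (4.91%), and mt-Nd4 in CSF1Ri+CD40 (9.6%).

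The size of these medians rested partly on single libraries. Without CD40 3 the median under CD40 was -0.50, without CD40 2 and CD40 3 it was -0.39, and without CSF1Ri+CD40 1 the median under both agents was -0.18. The CSF1Ri median was -0.59 without Control 1, -0.27 without Control 2 and -0.27 without Control 3. With ribosomal and transfer RNA added to the 7 messages it was -0.24. Malat1, an abundant RNA retained in the nucleus, was highest in CD40 3 at 95260 against 14056 to 59286 in the other libraries. The value of 59286 was that of Control 3, which had the highest log2 ratio of the sums, 0.33. The part of nuclear RNA content in the low value of CD40 3 was not tested.

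The mitochondrial ribosomal RNAs did not share the direction of the messages in every group. mt-Rnr2, the 16S RNA of the mitochondrial ribosome, stood at 35713, 44187 and 74247 in the controls, 60996 and 68428 in CSF1Ri, 60209, 55660 and 22202 in CD40 and 44799 and 74753 in CSF1Ri+CD40. The groups overlapped throughout. Its log2 fold change was 0.40 (SE 0.427) under CSF1Ri, -0.22 (SE 0.382) under CD40 and 0.24 (SE 0.427) under both, with limma adjusted p of 1, 0.936 and 0.977.

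Divided by the sum of the 7 messages within each library, mt-Rnr2 was 0.189, 0.152 and 0.257 in Control 1, 2 and 3, 0.330 and 0.336 in CSF1Ri 1 and 6, 0.306, 0.308 and 0.226 in CD40 1, 2 and 3, and 0.295 and 0.348 in CSF1Ri+CD40 1 and 3. The CSF1Ri and CSF1Ri+CD40 libraries were all above the controls, and CD40 3 fell among them. mt-Rnr1, the 12S RNA, was far lower, at 2610 to 6374 per library, and its log2 fold changes were -0.15, -0.19 and 0.09 in the 3 comparisons over control (SE 0.350, 0.313 and 0.350). No ribosomal or transfer RNA row was past an unadjusted p of 0.05 in any comparison.

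Among the nuclear members the regulatory sequence can be read for some. RefSeq windows of GRCm38.p6, from 250 bases before to 50 after a gene's start, were matched for 76 of the 94 nuclear members. The letters GCGCANGCG, a form of the site of NRF1, a transcription factor known for activating nuclear respiratory genes, occurred on either strand in 25 of 76 windows (32.9%), against 14.6% of the tested genes with a window and 7.03% of all genes with one. CCGGAAG, a form of the ETS family site, occurred in 20 (26.3%, against 19.6% and 9.93%), and AAGATGGC, a form of the YY1 site, in 9 (11.8%, against 5.12% and 3.19%). TATAAA occurred in 6 (7.89%, against 9% and 15.7%). A match is only a match of letters. The stretches below, 41 bases each, show the NRF1 letters in capitals, on either strand, with their flanks. For each complex and for cytochrome c the subunit shown is the most abundant whose whole stretch lies before the start and in no annotated transcript of the gene. More abundant subunits with the letters, Atp5c1, Atp5o, Ndufa6 and Ndufb10, and both of complex III, Uqcr11 and Uqcrc1, had a stretch that reached past the start. They lie at chr5:115349051-115349091 (Cox6a1, minus strand), chr11:115420036-115420076 (Atp5h, minus), chr9:50603904-50603944 (Sdhd, minus), chr17:56717687-56717727 (Ndufa11, plus) and chr6:50566606-50566646 (Cycs, minus).
Cox6a1: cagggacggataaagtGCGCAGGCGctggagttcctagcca
Atp5h: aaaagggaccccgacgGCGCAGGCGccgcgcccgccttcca
Sdhd: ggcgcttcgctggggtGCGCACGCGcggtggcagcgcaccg
Ndufa11: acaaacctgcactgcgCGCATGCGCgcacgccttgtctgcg
Cycs: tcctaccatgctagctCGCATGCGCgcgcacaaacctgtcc

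The medians of the nuclear members differed more among the CD40 libraries than between groups. Relative to the control mean, their median log2 difference was 0.24, 0.53 and -0.23 in CD40 1, 2 and 3, while in the controls themselves it was -0.10, 0.25 and -0.14. CD40 2 had the highest value of all libraries in 62 of 94 members and CD40 3 the lowest in 41. The complexes shared this pattern: in CD40 2 the median was 0.54 for complex I, 0.56 for complex II, 0.57 for complex III, 0.67 for complex IV and 0.47 for complex V, and in CD40 3 it was between -0.19 and -0.32.

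**Figure D3:**
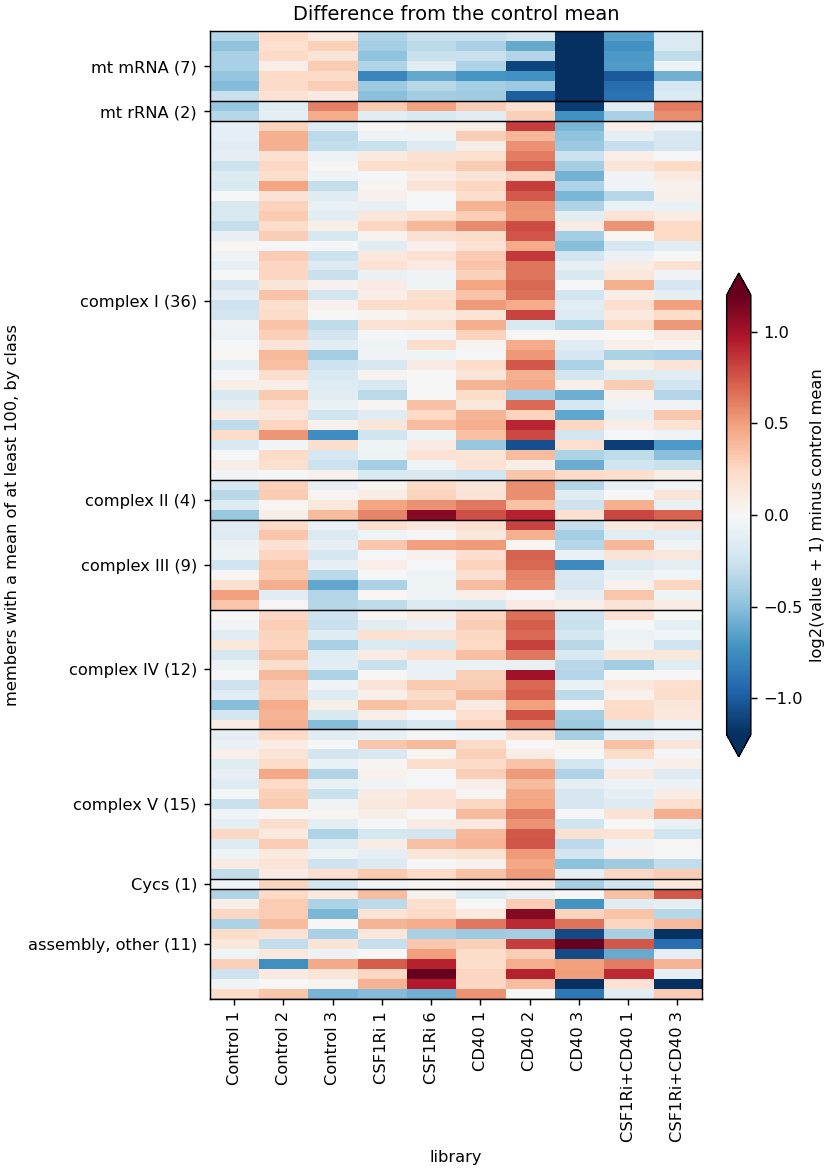
Rows are the 97 members with a mean of at least 100, without transfer RNAs, sorted by class, columns are libraries, and color is log2(value + 1) minus the control mean, with ends of the scale at 1.2 in both directions. The mitochondrial mRNAs are below the control mean in all 7 treated libraries, and the nuclear complexes are raised in CD40 2 and lowered in CD40 3.

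In CD40 2 the shift of a nuclear member was related to its length. Over 87 nuclear members with a mean of at least 100 and a gene model, Spearman's rho between exon length and the difference from the mean of 10 libraries was -0.41 in CD40 2 and between -0.06 and 0.24 in the other 9 libraries. The points share a library and its preparation, so the value is a description. Ndufs1, with the largest exon length of these at 8086 bases, was low in CD40 2. Members with a small exon length such as Cox8a, at 619 bases, were high there. The part of exon length or of message length in the CD40 medians of nuclear members was not tested. Without CD40 2 their median log2 fold change over control turned from 0.18 to -0.02, and without CD40 3 it was 0.40.

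**Figure D4:**
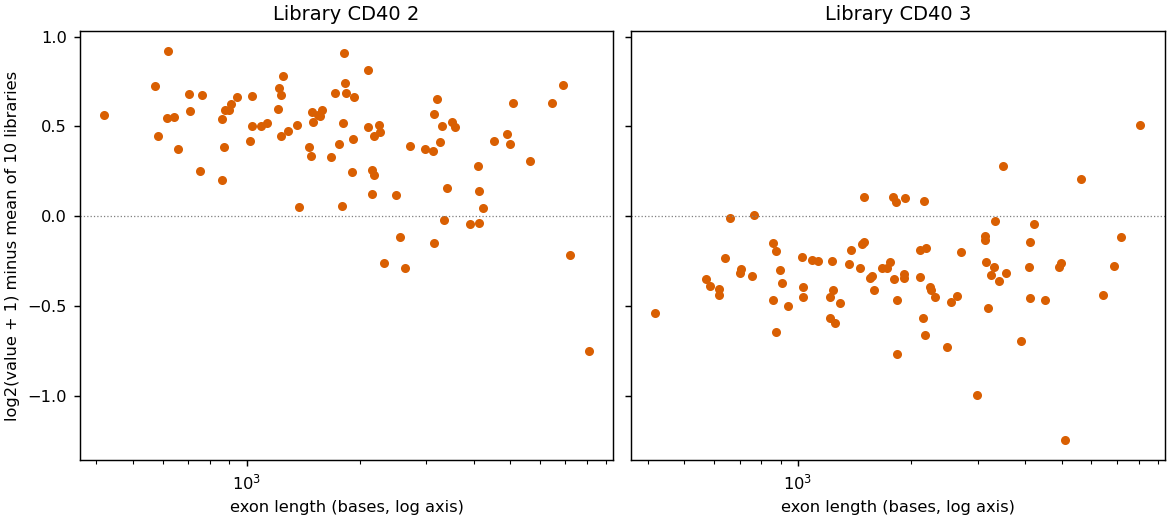
Each point is 1 of 87 nuclear members, with exon length in bases on a log x axis and log2(value + 1) minus the mean of the 10 libraries on the y axis, for CD40 2 on the left and CD40 3 on the right. Members with a small exon length, joined over all annotated transcripts, lie higher than those with a large one in CD40 2 (rho -0.41). CD40 3 has no such slope (rho 0.10).

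Over all 94, the nuclear median log2 fold change was 0.04 under CSF1Ri, 0.18 under CD40 and 0.02 under both. At an unadjusted p under 0.05, 1, 2 and 1 nuclear members were higher in these comparisons, where 1.99%, 2.63% and 2.34% of all genes were, and 0, 1 and 2 were lower, where 2.09%, 3.76% and 3.07% were. Groups did not overlap on the higher side for 11, 3 and 8 of 94, where 11.6%, 4.19% and 10.6% of all genes did not, and on the lower side for 2, 1 and 9 of 94, where 10.3%, 4.91% and 9.6% did not.

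Subtracting the nuclear from the mitochondrial median gave -0.97 under CD40, -0.41 under CSF1Ri and -0.52 under both, with a spread between replicates of 0.317. The CD40 value stayed below 0 whichever single library was left out, between -1.16 and -0.74, and was -0.63 without CD40 2 and CD40 3 together. The part of the length-related nuclear shift of CD40 2 in the CD40 value was not tested. Without CSF1Ri+CD40 1 the difference under both agents was -0.17.

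**Figure D5:**
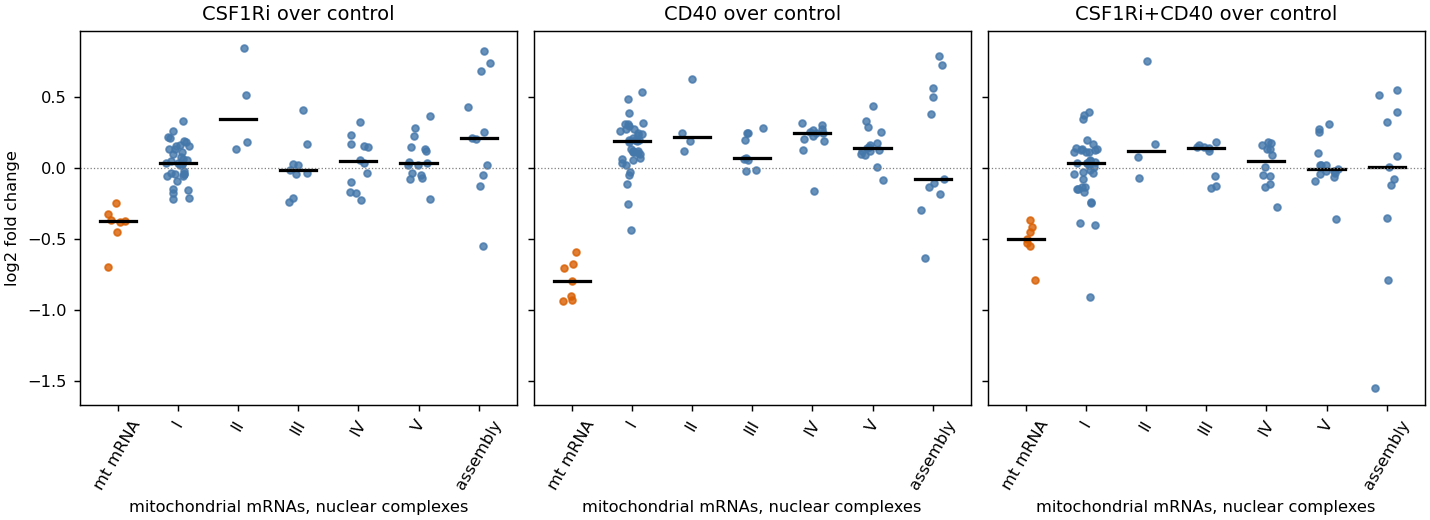
Points are members with a mean of at least 100 and black lines are their medians, by class on the x axis, with the limma log2 fold change over control on the y axis in 3 panels. The mitochondrial mRNAs, in orange, lie between -0.60 and -0.94 under CD40 and between -0.25 and -0.70 under CSF1Ri, below the median of every nuclear class.

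Complex I, which oxidizes NADH, had 36 nuclear subunits, all 36 of those named passing the filter. Their median log2 fold change was 0.03, 0.19 and 0.03 under CSF1Ri, CD40 and both. Its most abundant nuclear members by mean count were Ndufa13, at 3182 to 8236, and Ndufb7, at 3115 to 5869, both accessory subunits. Ndufa10 was the steadiest member over the 10 libraries, with an SD of 0.155 on the log2 scale and values of 1567 to 2237.

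Ndufs1 holds iron-sulfur clusters of the electron path of complex I (chromosome 1, 63143596 to 63176833, minus strand, GRCm38). It stood at 1233, 1369 and 1618 in the controls, 1353 and 1493 in CSF1Ri, 1017, 671 and 1605 in CD40 and 638 and 864 in CSF1Ri+CD40. Both CSF1Ri+CD40 libraries were below all control and CSF1Ri libraries. The log2 fold change was -0.91 over control (SE 0.339, limma adjusted p = 0.883) and -0.94 over CSF1Ri (SE 0.372, limma adjusted p = 1).

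Ndufb3, an accessory subunit, was highest in CD40 2 at 1956 and lowest in Control 1 at 842, and had one of the 3 smallest p of nuclear members for the interaction (log2 difference -0.66, SE 0.384, limma adjusted p = 0.991). Its value did not pass.

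Complex II, succinate dehydrogenase, is wholly nuclear, which makes it the one complex without a mitochondrial message. All 4 of its subunits had positive log2 fold changes under CSF1Ri and CD40, with medians of 0.35 and 0.22. Under both agents 3 of the 4 were higher and 1 lower, with a median of 0.12. Sdhb and Sdhd, the most abundant, ran from 3871 to 7245 and from 2640 to 4886.

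Sdhc, a membrane anchor of complex II (chromosome 1, 171127165 to 171150603, minus strand), stood at 933, 1338 and 1666 in the controls, 1922 and 2725 in CSF1Ri, 2180, 2419 and 1445 in CD40 and 2229 and 2082 in CSF1Ri+CD40. Only CD40 3 lay within the control range. Its log2 fold change was 0.84 (SE 0.307), 0.62 (SE 0.275) and 0.75 (SE 0.307) under CSF1Ri, CD40 and both, with limma adjusted p of 1, 0.773 and 0.914. It was the only member at an unadjusted p under 0.05 and higher in all 3 comparisons, which share their controls. For the interaction its log2 difference was -0.71 (SE 0.435, limma adjusted p = 0.991).

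Complex III, which passes electrons to cytochrome c, had 9 nuclear members with medians of -0.01, 0.07 and 0.14. Uqcrh and Uqcr10, small subunits, were the most abundant at 5017 to 10631 and 3055 to 5447, and Uqcr11 ran from 2265 to 4285. The log2 fold change of mt-Cytb, of the same complex, was below that of every nuclear member of it in CD40 over control. Cycs, the cytochrome c of somatic cells, ran from 1457 to 2319 with log2 fold changes of -0.02, -0.08 and -0.06 (SE 0.249, 0.222 and 0.249).

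Complex IV, cytochrome c oxidase, had 16 of 20 named nuclear members past the filter. Cox4i1, the ubiquitous form of subunit 4, was the most abundant nuclear member of all, at 12709, 15126 and 10675 in the controls, 12919 and 13494 in CSF1Ri, 15240, 20106 and 10717 in CD40 and 14462 and 12688 in CSF1Ri+CD40. The groups overlapped, and its log2 fold change under CD40 was 0.23 (SE 0.229, limma adjusted p = 0.890), where that of mt-Co1 was -0.60.

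For several complex IV subunits, ubiquitous and tissue forms could be set side by side, and in every library the ubiquitous form was the higher. The ubiquitous Cox6a1 ran from 4689 to 9355 and Cox8a from 2934 to 7654. Cox6a2, the heart and muscle form, ran from 0 to 12, and Cox8b, another muscle form, was listed at 0 throughout. Cox7a2 ran from 1908 to 4275 and its relative Cox7a2l from 2073 to 4171, and Cox7a1, the muscle form, from 5 to 59. Cox6b1 ran from 4194 to 7721 and Cox6b2, known from testis, from 0 to 100. Cox4i2, the form known from lung, did not pass, at 0 to 18.

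Ndufa4 and Ndufa4l2 are alternative forms of a subunit now assigned to complex IV, and Ndufa4l2 is known to be induced by hypoxia (chromosome 10, 127514967 to 127517154, plus strand). Ndufa4 ran from 3562 to 5494. Ndufa4l2 stood at 73, 33 and 96 in the controls, 19 and 12 in CSF1Ri, 75, 0 and 0 in CD40 and 0 in both CSF1Ri+CD40 libraries. It was listed above 0 in all controls and in CD40 1 only among the 5 libraries with antibody. The unadjusted p was 0.0304 under CD40 and 0.00568 under both (limma adjusted p 0.770 and 0.743), and no fold is given against groups at 0. Fibroblast markers summed to 1760, 1615 and 2778 in the controls, 4858, 946 and 34 in CD40 and 740 and 2620 in CSF1Ri+CD40, and the part of other cells in this row was not tested.

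Complex V, the ATP synthase, had 15 nuclear members with medians of 0.04, 0.14 and -0.01. Atp5c1, of the central stalk, ran from 7501 to 11653. Atp5a1, of the catalytic head, ran from 7985 to 11080, and both CSF1Ri libraries were above all controls (log2 fold change 0.36, SE 0.175, limma adjusted p = 1). The c-ring is encoded by 3 genes for 1 mature protein. Atp5g3 ran from 3759 to 5907, Atp5g1 from 2459 to 4102 and Atp5g2 from 749 to 1315, with 35.8% of the windows of Atp5g2 shared with other transcripts. Atp5d, of the central stalk, had one of the smallest p for CSF1Ri+CD40 over CD40 (log2 fold change -0.47, SE 0.253, limma adjusted p = 0.966).

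The 13 assembly factors and other members varied more than subunits, and most are low. Ndufaf7, a methyltransferase of complex I assembly (chromosome 17, 78937136 to 78948052, plus strand), stood at 326, 555 and 425 in the controls, 563 and 580 in CSF1Ri, 660, 791 and 667 in CD40 and 508 and 556 in CSF1Ri+CD40. All CD40 libraries were above all others. The log2 fold change under CD40 was 0.72 (SE 0.269, limma adjusted p = 0.743), and for the interaction the difference was -0.83 (SE 0.425, limma adjusted p = 0.991).

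Ndufaf4, another complex I factor, stood at 795, 769 and 522 in the controls, 750 and 521 in CSF1Ri, 506, 512 and 325 in CD40 and 519 and 300 in CSF1Ri+CD40. All 5 libraries with antibody were below all controls, the nearest by 3 counts. Its log2 fold change was -0.64 (SE 0.330) under CD40, the lowest of nuclear members with a mean of at least 100 (limma adjusted p = 0.788). Ndufaf5 had 352 and 404 in CSF1Ri against 127 to 292 in control (log2 fold change 0.82, SE 0.414, limma adjusted p = 1).

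Factors of complex II were also uneven. Sdhaf2, which helps attach FAD, stood at 1352 and 1771 in CSF1Ri+CD40 against 942, 994 and 1064 in CD40 (log2 fold change 0.63, SE 0.263, limma adjusted p = 0.966). Sdhaf3 was at 16 in CSF1Ri+CD40 3 and 57 in CD40 3 and at 159 to 318 elsewhere, so its log2 fold change of -1.55 (SE 0.890) for both agents over control rested on 1 library of 2. Sdhaf1 ran from 90 to 238, with 68.7% of its windows shared with another transcript. Atp5sl and Atp5s, named for similarity to the ATP synthase, ran from 154 to 693 and 4 to 144, and Atp5sl had the highest log2 fold change under CD40 among members with a mean of at least 100, 0.79 (SE 0.444, limma adjusted p = 0.795).

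When the combination was set against each single treatment, members differed little. The median of the 7 mitochondrial mRNAs was -0.09 over CSF1Ri and 0.18 over CD40, and the nuclear medians were -0.04 and -0.15. The mitochondrial median over CD40 turned to -0.07 without CD40 3 and to -0.01 without CSF1Ri+CD40 3, and that over CSF1Ri turned to 0.19 without CSF1Ri+CD40 1. Over CSF1Ri, 0 members were higher and 2 lower at an unadjusted p under 0.05, Ndufs1 and Sdhaf3 (1.55% of all genes higher, 2.04% lower). Over CD40, Sdhaf2 was higher and none lower (2.67% and 2.29%). For the interaction no member was at that level in either direction (2.32% and 1.85%), with a median of 0.71 for the 7 mitochondrial mRNAs and -0.22 for nuclear members. Against CSF1Ri, the 2 libraries did not overlap on the higher side for 12 of 94 nuclear members and on the lower side for 26 (16.5% and 16.8% of all genes).

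Genes that act on the mitochondrial genome or beside the chain were read from lists. Of 33 tested genes for mitochondrial transcription and RNA processing, 18 were higher and 15 lower under CD40, their median log2 fold change being 0.05. At an unadjusted p under 0.05, 1 was higher and 2 were lower, beside 2.63% and 3.76% of all genes. Tbrg4 had the smallest p under CD40, with a log2 fold change of -1.13 (SE 0.355, limma adjusted p = 0.699). Under CSF1Ri the smallest p was that of Mtpap, with a log2 fold change of 1.06 (SE 0.345). Polrmt, the mitochondrial RNA polymerase, had a log2 fold change of -1.94 (SE 0.832, limma adjusted p = 0.914) for both agents over control. For both agents over CD40 it was -2.32 (SE 0.832, limma adjusted p = 0.933), so its estimate under CD40 alone was not below control. It is named for the smallest p of this list in these comparisons. Of 15 regulators of mitochondrial biogenesis 5 were higher and 10 lower under CD40 (median -0.17). Of 76 mitochondrial ribosomal proteins, which are nuclear, 61 were higher and 15 lower under CD40, with a median of 0.19 like that of the nuclear members of the chain, and their sum was likewise highest in CD40 2, at 104642, and lowest in CD40 3, at 66418. Of 24 import genes 16 were higher and 8 lower (median 0.09), and of 29 assembly genes of complexes III and IV 19 and 10 (median 0.23). The sums of these lists were also highest in CD40 2, at 30780 and 27707. Of 18 genes of the citric acid cycle 3 were higher and 15 lower under CD40 (median -0.21), and 14 were higher and 4 lower under CSF1Ri (median 0.16). Over all genes tested, 49% were higher under CD40 and 51.1% under CSF1Ri. The cycle genes summed to 35385, 38998 and 37071 in Control 1, 2 and 3 and to 39175 and 43087 in CSF1Ri 1 and 6. In CD40 1, 2 and 3 they summed to 37677, 37777 and 31925, so only CD40 3 was below the controls. None of these genes passed the adjusted threshold in any comparison, and the 24 carrier and quality genes had a median of 0.00 under CD40.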

How the data were processed

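Per the labels' protocols and the submitters' processing notes, RNA (50 ng) was made into SMARTer ultra low input libraries without strand information, read as 75-base pairs with 6 libraries per lane, and processed with STAR, HTSeq and DESeq2 on the build GRCm38 (mm10); versions and annotation release are not given. The deposited values are scores: normalized counts that the authors rounded to whole numbers, so no count test was run. Members and lists were chosen with earlier results of these data known. Genes with at least 10 in at least 2 libraries were fitted in limma 3.58.1 (R 4.3.3) on log2(value + 1), with 4 groups, a variance trend, and 6 residual degrees of freedom, and adjusted p (Benjamini-Hochberg) under 0.05 counted as passing. The fit was tested on simulated data with changes larger than those of the mitochondrial mRNAs. Positions and windows are from GENCODE vM21. Named were all mitochondrial members, the 2 most abundant nuclear members per complex, the 3 with the smallest p per comparison, the extreme fold changes and tissue forms; mt-Atp8, Ndufa10 and genes of the lists were named after their values were seen. Alternatives were another pseudocount, filters, scalings, weights, groups and left-out libraries. Same-number libraries were not paired: correlations of their departures from group means ran from -0.27 to 0.18. One further allele of the mice is not reported here.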

Additional observations from a re-analysis of the deposited data

How the results depend on the processing

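Of 26 alternatives, 24 were planned and 2, leaving out CD40 2 with CD40 3 and leaving out the 3 libraries with Y-linked transcripts, were chosen after seeing the data. The count of members past the adjusted threshold was 0 in each of the 21 that refitted the table, for the comparisons each allowed; the other 5 changed only how members were summarised. No mitochondrial mRNA changed sign over control, and their limma adjusted p ran from 0.260 to 1 over the alternatives. With CD40 2 and CD40 3 left out, the CD40 over control median was -0.39 for mitochondrial mRNAs and -0.63 for mitochondrial minus nuclear members, and the log2 ratio of sums was -0.58. Among libraries without Y-linked transcripts, the log2 ratio was -0.07 and 0.33 in Control 2 and 3 and -0.50 and -0.44 in CSF1Ri 1 and 6. It was -0.61 in CD40 1, between -0.80 and -0.28 in CSF1Ri+CD40 1 and 3. Leaving out single libraries gave mitochondrial minus nuclear medians of -0.77 to -0.17 for CSF1Ri+CD40 over control and 0.14 to 0.66 for CSF1Ri+CD40 over CD40. With the replicate block, which took library numbers as pairs, the CD40 over control median stayed at -0.80 for mitochondrial mRNAs and 0 members passed. With 2 or 3 pools per group, differences had to be large to pass. Mitochondrial mRNAs with log2 fold changes down to -0.94 under CD40 had limma adjusted p of 0.666 or more. That 0 members passed therefore does not exclude differences of that size. The mitochondrial medians of the combination over each single treatment took either sign when a library was left out.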

Other observations

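Of 22 mitochondrial transfer RNA rows, 8 passed the filter. mt-Tw, for tryptophan, was the most abundant of them, at 143, 270 and 455 in Control 1, 2 and 3, 301 and 468 in CSF1Ri 1 and 6, 453, 287 and 161 in CD40 1, 2 and 3, and 242 and 400 in CSF1Ri+CD40 1 and 3. Its groups overlapped. mt-Tp, for proline, stood at 104, 98 and 124 in control and at 50 to 92 in the treated libraries, all below control, and its log2 fold change under CD40 was -0.77 (SE 0.502, limma adjusted p = 0.832). mt-Ta and mt-Te, for alanine and glutamate, were listed at 0 in CD40 3, and mt-Tm, mt-Tq, mt-Tt and mt-Ty had means under 100.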
